A study of Mus musculus with 9 samples.

Results

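The genes described are 46 mouse DNA repair genes, chosen by name from the base excision, mismatch, nucleotide excision and strand break repair pathways and from the checkpoint that reports on DNA damage, out of 25239 genes in the deposited expression table. The rule for membership uses no measured value, though the list was chosen with earlier results of these data known. The study grew astrocytes, the star-shaped support cells of the brain, from the cortices of mouse pups at postnatal day 4 in serum-containing medium and sequenced their polyadenylated RNA. The 3 groups, each with 3 libraries, were untreated cultures (control), cultures given 200 µM hydrogen peroxide for 3 h and harvested 24 h after it was washed out (day 1), and cultures given the same exposure and harvested 72 h after washing (day 3). The labels name no strain, genotype, sex or harvest time for the controls, and they do not say whether the 3 libraries of a group came from separate cultures, so each p-value reflects how far these libraries scatter, and that scatter may be technical. The series title concerns peroxide-treated astrocytes in ischemic stroke, and the comparisons here ask how far the RNA of the repair machinery moved after the oxidant and whether it had moved back by day 3.

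Hydrogen peroxide damages DNA mainly by oxidising bases and breaking single strands. In base excision repair a DNA glycosylase cuts out the damaged base, an endonuclease nicks the backbone at the empty site, and a polymerase and a ligase fill and seal the gap on the scaffold protein Xrcc1. Mismatch repair corrects replication errors, nucleotide excision repair removes bulky lesions, end joining reseals double-strand breaks at any time in the cell cycle, and homologous recombination and the Fanconi pathway work mostly in cells that are copying their DNA. Many repair proteins are controlled by modification and recruitment rather than by the amount of their RNA, and RNA is what was measured here.

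Each library held 23032594 to 38414668 reads, and the day 1 libraries were the shallowest, at 23032594 to 27850348. Of the 46 genes, 45 averaged at least 0.3 FPKM (fragments per kilobase of gene, scaled to the size of the library) over the 9 libraries and were tested with 14489 genes in all, and a tested member had 41 to 3238 reads in a library. Between 7.67% and 11.9% of reads came from Rn45s, a precursor of ribosomal RNA, with the largest shares in control replicate 1 and day 3 replicate 2. Astrocyte markers were abundant, with Gfap at means of 1235 to 1493 FPKM, while of 8 neuronal markers Rbfox3, Snap25, Slc17a7 and Gad1 averaged under 0.3 FPKM. The other 4, Tubb3, Map2, Stmn2 and Syt1, were measured, with Tubb3, Map2 and Stmn2 at control means of 37.7, 32.3 and 30.6 FPKM. The 8 summed to 101 to 102 FPKM in control, 109 to 112 on day 1 and 109 to 110 on day 3. Of the 4 tested ones 3 were higher on day 1, beside 29.6% of all tested genes. Levels below are FPKM as deposited. Ratios and their 95% intervals come from a limma fit to log2(FPKM + 0.1), with the libraries first put on a common scale; adding 0.1 makes ratios of low genes too small. A gene is said to have risen or fallen where its Benjamini-Hochberg adjusted p over all tested genes was under 0.05. In bulk RNA, fewer cells of a type and less RNA per cell cannot be told apart.

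On day 1, 16 of the 45 tested repair genes were higher than in control, 10 were lower and 19 were not called. That is 57.8% of them, beside 58.6% of all tested genes (29.6% higher and 29% lower). On day 3 no listed gene was higher than control and 4 were lower (Neil3, Brca1, Parp1 and Fancd2), 8.89% beside 12.4% of all genes (6.55% higher and 5.85% lower). In limma, 6 members were higher on day 3 at an unadjusted p under 0.05, and limma-voom on recovered reads called 1, Msh6. Between day 1 and day 3, 7 members rose and 16 fell, 51.1% beside 52.4% of all genes (25.6% higher and 26.8% lower). The members were therefore called about as often as other genes in each comparison. Libraries of day 1 did not overlap control for 14 members that were higher and 11 that were lower, beside 27% and 36.6% of all tested genes. For day 3 against control there were 5 and 14, beside 12% and 17.4%, and for day 3 against day 1 there were 9 and 18, beside 32.2% and 27%. The comparisons are not independent, since both days share the control libraries and the third shares both days' libraries.

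The changes were small. No member moved 2-fold in any comparison, and on day 1 the median size of change was 0.16 on the log2 scale over the members and 0.21 over all tested genes. Ung was the 1 member of 45 that changed by 1.5-fold or more on day 1, whereas 5.03% of all tested genes rose and 7.61% fell that far. The median log2 change of the members was 0.08 on day 1, -0.02 on day 3 against control and -0.12 between the days, beside -0.01, 0.01 and 0.00 for all tested genes. Summed over the 46 genes, FPKM ran from 277 to 286 in control, from 280 to 285 on day 1 and from 271 to 277 on day 3, so the day 1 sums lay inside the control range and the day 3 sums just below it. With the FPKM left as deposited, 10 members were higher and 10 lower on day 1, a 50% share of rises in place of 61.5%, and over all tested genes the share of rises was 42.1% (3500 higher and 4811 lower) in place of 50.5%. Without day 1 replicate 3, 10 were higher. As deposited, 653 of all tested genes were higher and 912 lower on day 3 against control, in place of 949 and 847. On day 3 against control 2 were lower without control replicate 1, and 1 without control replicate 2, day 3 replicate 1 or day 3 replicate 3. Between the days 4 were higher without day 1 replicate 3 or day 3 replicate 2.

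**Figure D1:**
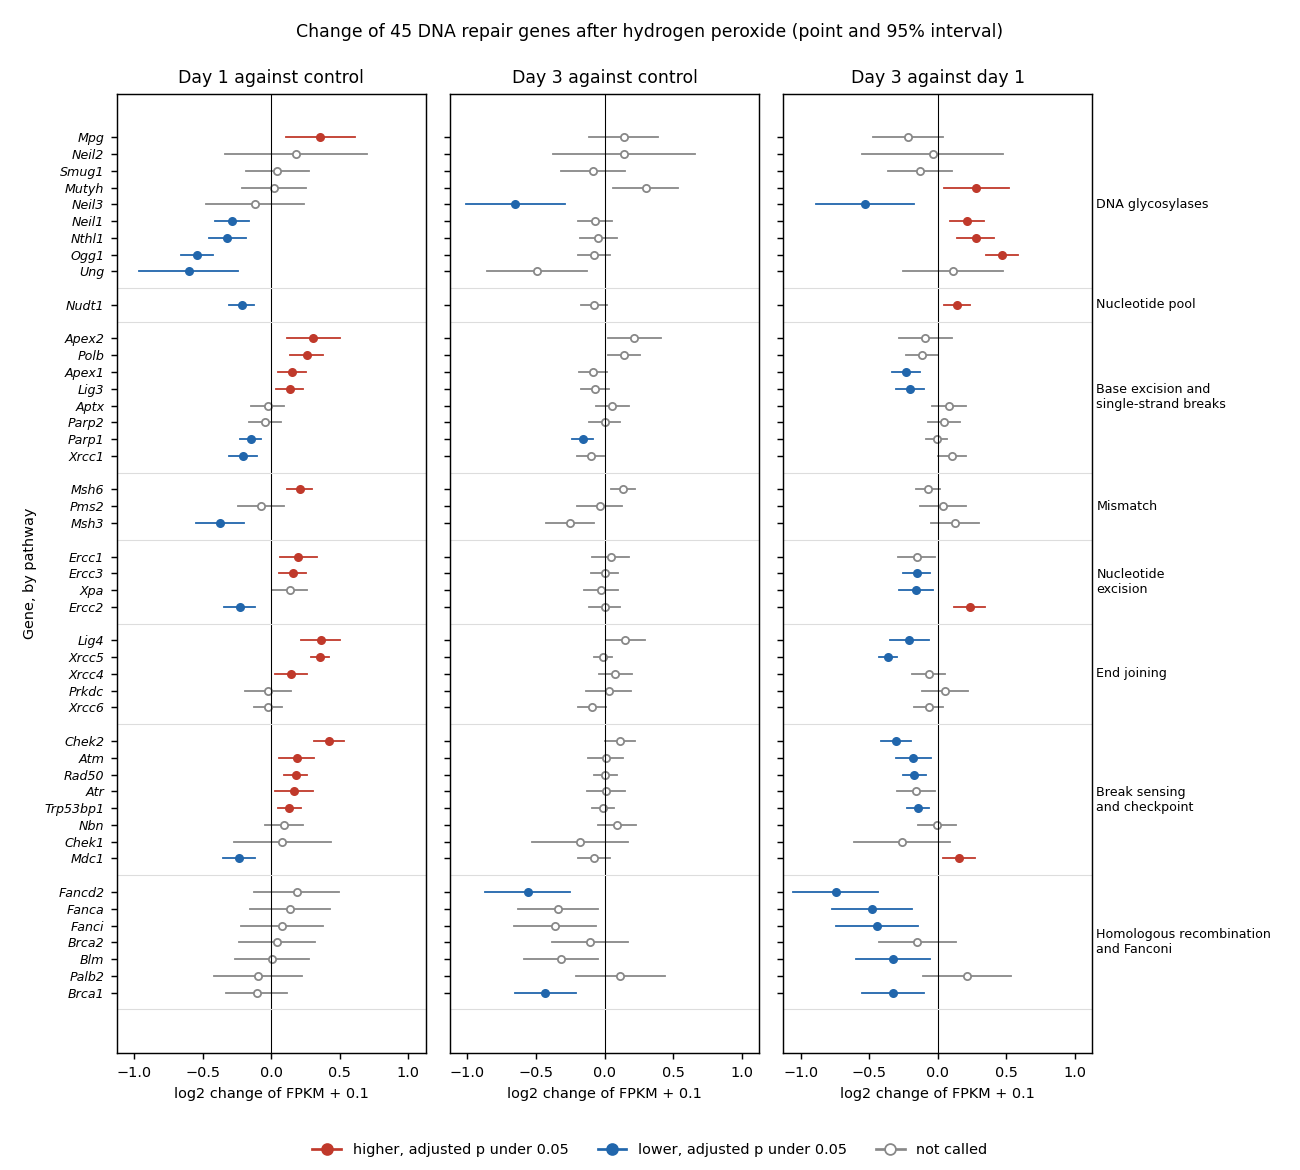
Change of each of the 45 tested repair genes on the log2(FPKM + 0.1) scale (horizontal axis), by pathway (vertical axis), for day 1 against control, day 3 against control and day 3 against day 1; points are the limma estimates, bars their 95% intervals, and filled red or blue points passed an adjusted p under 0.05. The left panel has 16 red and 10 blue points, the middle panel 4 blue points, and the right panel 7 red and 16 blue points.

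In untreated cultures the members spanned a wide range of levels. Apex1, the endonuclease that cuts at sites left without a base, was highest at 27.1 ± 1.28 FPKM (SD, n = 3). That level is uncertain, since Pip4p1 on the other strand overlaps 61.7% of the Apex1 exon bases. Parp1, the sensor of strand breaks, followed at 23.3 ± 0.467. The next 4, Ercc3 at 13.98 ± 0.484, Ercc1 at 13.3 ± 1.15, Ogg1 at 13.2 ± 0.372 and Xpa at 12.9 ± 0.676, did not differ from their neighbours in that order by more than the larger SD. All 7 recombination and Fanconi genes lay among the 11 lowest members, between 0.590 FPKM for Palb2 and 1.37 for Brca1. The median level over the 9 libraries was 4.17 FPKM for the tested members and 7.71 for all tested genes.

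Glycosylases are the enzymes that find damaged bases. Of the 9 tested, 4 fell and 1 rose on day 1: Ogg1, Nthl1, Neil1 and Ung fell and Mpg rose, while Mutyh, Neil2, Neil3 and Smug1 were not called. Ogg1 removes 8-oxoguanine, the commonest oxidised purine, and Nthl1 and Neil1 remove oxidised pyrimidines. Nudt1, which clears oxidised guanine nucleotides from the pool before they are built into DNA, fell as well. Over all tested genes 29% were lower and 29.6% higher in this comparison.

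Ogg1 (chr6:113326972-113335068, GRCm38) stood at 12.8, 13.6 and 13.2 FPKM in the control libraries, 9.25, 9.23 and 7.85 on day 1 and 12.3, 12.4 and 12.3 on day 3. Every day 1 library was below every other library, and the day 3 libraries lay just under the control range. The fall on day 1 was 1.46-fold (ratio 0.686, 95% interval 0.633 to 0.744, adjusted p = 1.1e-05), and between day 1 and day 3 the gene rose 1.38-fold (95% interval 1.27 to 1.498, adjusted p = 4.36e-05). On day 3 it was no longer called against control (ratio 0.948, 95% interval 0.874 to 1.03, adjusted p = 0.401). Ogg1 overlaps Camk1 on the other strand over 10.6% of its exon bases, and Camk1 was lower on day 1 too, from a mean of 49.3 to 40.95 FPKM (1.17-fold, adjusted p = 4.27e-05). The sources used here do not give the handling of strand in counting, so reads from the shared stretch cannot be told apart, and the part of Camk1 in the Ogg1 value was not tested.

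Nthl1 (chr17:24632680-24638837) measured 7.09, 7.11 and 8.05 FPKM in the control libraries, 5.75, 5.55 and 5.91 on day 1 and 6.88, 6.82 and 7.58 on day 3. It fell 1.25-fold (ratio 0.8003, 95% interval 0.729 to 0.878, adjusted p = 0.00105) on day 1 and rose 1.21-fold (95% interval 1.104 to 1.33, adjusted p = 0.00313) by day 3. Neil1 (chr9:57142800-57148305) measured 4.42, 5.02 and 4.801 FPKM in the control libraries, 3.598, 3.94 and 3.76 on day 1 and 4.62, 4.28 and 4.44 on day 3. Its fall was 1.22-fold (ratio 0.822, 95% interval 0.754 to 0.895, adjusted p = 0.00139), followed by a rise of 1.16-fold (95% interval 1.06 to 1.26, adjusted p = 0.00892). For both genes the day 1 libraries lay below all of the others, and day 3 overlapped control.

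Nudt1 (chr5:140321656-140338137) was at 6.74, 6.97 and 7.06 FPKM in the control libraries, 5.796, 6.004 and 5.52 on day 1 and 6.51, 6.64 and 6.302 on day 3. The 3 day 1 libraries were again the lowest, the fall was 1.16-fold (ratio 0.861, 95% interval 0.806 to 0.919, adjusted p = 0.00138), and the rise by day 3 was 1.104-fold (95% interval 1.03 to 1.18, adjusted p = 0.0165). That rise lost its call on singly leaving out day 1 replicate 3 or day 3 replicate 2 (0.0609 to 0.0621), by limma-voom on the recovered reads (0.197) and without the 2 libraries richest in Rn45s (0.079). Ogg1, Nthl1, Neil1 and Nudt1 were not called against control on day 3, with adjusted p values of 0.401, 0.705, 0.464 and 0.307.

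Ung, which removes uracil from DNA, fell on day 1 and was not called between the days. Its values were 1.197, 1.69 and 1.98 FPKM in the control libraries, 0.907, 1.01 and 1.04 on day 1 and 0.968, 1.05 and 1.26 on day 3. The day 1 libraries were all below the control libraries, and 1 day 3 library reached into the control range. The fall on day 1 was 1.52-fold (ratio 0.658, 95% interval 0.512 to 0.847, adjusted p = 0.00909), the largest of any member in that comparison, and on day 3 the ratio to control was 0.711 with an adjusted p of 0.0809. That day 3 difference was called without control replicate 1 (0.0192), the lowest of the controls, and by limma-voom on the recovered reads (0.0261). Between the days the ratio of Ung was 1.08 (95% interval 0.8401 to 1.39, adjusted p = 0.593). Whether that change differed from those of Ogg1, Nthl1, Neil1 and Nudt1 was not tested.

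**Figure D2:**
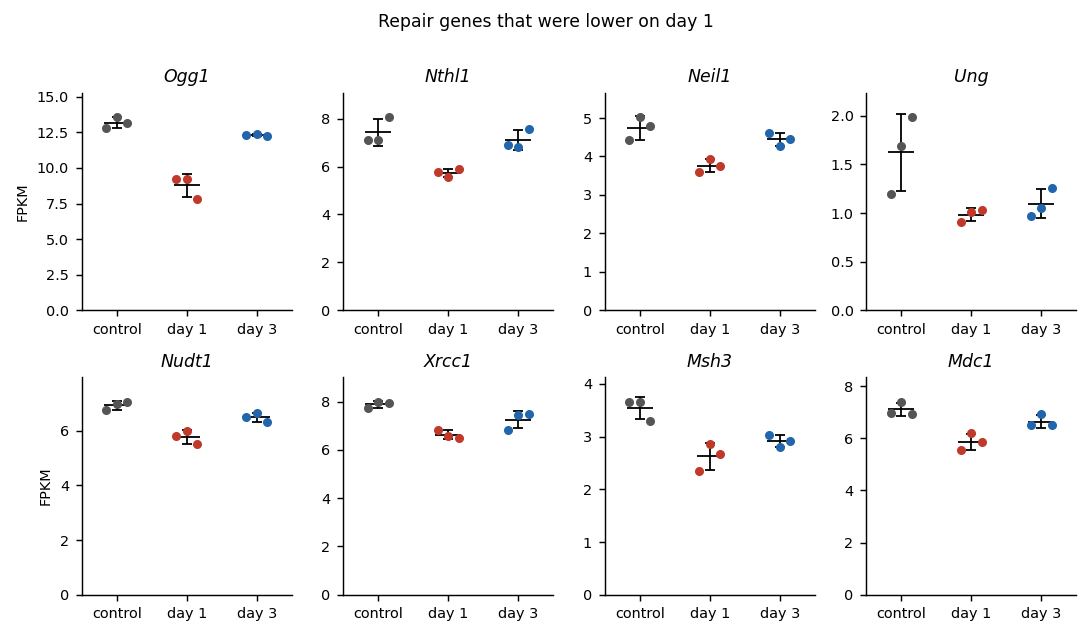
FPKM as deposited (vertical axis, from 0, with its own scale in each panel) of 8 repair genes that were lower on day 1, in control, day 1 and day 3 libraries; dots are single libraries, and the bars are the mean and SD of 3. Ogg1, Nthl1, Neil1, Nudt1, Xrcc1 and Mdc1 have their 3 lowest libraries on day 1, while in Ung and Msh3 the day 3 libraries overlap those of day 1.

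The remaining glycosylases each behaved differently. Mpg, which removes alkylated purines, measured 3.37, 3.01 and 3.37 FPKM in the control libraries, 3.63, 3.81 and 4.85 on day 1 and 3.21, 3.69 and 3.74 on day 3. All day 1 libraries were above all controls, most of all day 1 replicate 3, and the rise was 1.28-fold (95% interval 1.08 to 1.53, adjusted p = 0.0201). The call was lost on singly leaving out control replicate 2 or day 1 replicate 3 (0.0585 to 0.0721). Mpg shares 35.7% of its exon bases with Nprl3 on the opposite strand, which went from a mean of 5.97 to 6.45 FPKM on day 1 (adjusted p = 0.058), so its level is uncertain.

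Mutyh, which removes adenine placed opposite 8-oxoguanine, measured 1.54, 1.45 and 1.298 FPKM in the control libraries, 1.39, 1.41 and 1.43 on day 1 and 2.04, 1.67 and 1.599 on day 3. Day 1 lay within the control range, and the day 3 libraries were above all of the others. Against day 1 the rise was 1.21-fold (95% interval 1.03 to 1.43, adjusted p = 0.0472), while against control the ratio was 1.23 (adjusted p = 0.0995). The call between the days was lost on singly leaving out control replicate 2, day 1 replicate 1, 2 or 3 or day 3 replicate 1 or 2 (0.0611 to 0.178), with a filter of 1 FPKM (0.0521), with no filter (0.079), with quantile normalization (0.154), by limma-voom on the recovered reads (0.132), with the other group left out (0.052) and without the 2 libraries richest in Rn45s (0.0706).

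Neil3, a glycosylase known for expression in dividing cells, measured 1.14, 1.35 and 1.03 FPKM in the control libraries, 0.882, 0.988 and 1.27 on day 1 and 0.814, 0.679 and 0.616 on day 3. Control and day 1 overlapped, and all 3 day 3 libraries were lower than the rest. Neil3 fell 1.57-fold (ratio 0.638, 95% interval 0.497 to 0.818, adjusted p = 0.0268) on day 3 against control and 1.44-fold (ratio 0.693, 95% interval 0.5399 to 0.889, adjusted p = 0.0187) against day 1. The call against control was lost on singly leaving out control replicate 1 or 2 or day 3 replicate 2 or 3 (0.0589 to 0.0957) and without the 2 libraries richest in Rn45s (0.115), and the call against day 1 on singly leaving out day 1 replicate 3 or day 3 replicate 3 (0.0657 to 0.0694) and without the 2 libraries richest in Rn45s (0.0665). Neil2 was not called on day 1 (adjusted p = 0.525), but it was higher (0.0432) when control replicate 1, at 1.36 FPKM the highest control, was left out.

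Tdg, the glycosylase for thymine and uracil opposite guanine, was close to undetected, at 0.00929 to 0.0656 FPKM and 1 to 7 reads in a library. A processed pseudogene, Tdg-ps, matches 84.8% of the Tdg transcript at 98.7% identity, and 2 others match 34.1% of it at over 99% identity, so reads may have been discarded or assigned elsewhere. No statement on Tdg is made from these values.

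The steps after the glycosylase split in direction. On day 1 Apex1, Apex2, Polb and Lig3 rose, Xrcc1 and Parp1 fell, and Parp2 and Aptx were not called. Polb, the polymerase that fills the gap, measured 11.7, 12.2 and 12.2 FPKM in the control libraries, 14.02, 15.04 and 13.1 on day 1 and 14.2, 12.97 and 12.4 on day 3. The day 1 and day 3 libraries were all above the controls, the rise on day 1 was 1.195-fold (95% interval 1.102 to 1.297, adjusted p = 0.00189), and on day 3 the ratio to control was 1.103 with an adjusted p of 0.115. Apex2, a relative of Apex1 that also trims damaged ends, measured 2.78, 2.46 and 2.52 FPKM in the control libraries, 2.995, 2.96 and 3.44 on day 1 and 2.89, 3.18 and 2.88 on day 3. Its day 1 and day 3 libraries were also above every control, with a rise of 1.24-fold (95% interval 1.08 to 1.41, adjusted p = 0.0116) on day 1 and a ratio of 1.16 on day 3 (adjusted p = 0.143).

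Apex1 measured 26.9, 25.9 and 28.4 FPKM in the control libraries, 29.5, 27.99 and 30.1 on day 1 and 24.4, 25.6 and 25.6 on day 3. Day 1 overlapped control by 1 library, and day 3 lay below both. Its rise on day 1 was 1.11-fold (95% interval 1.03 to 1.19, adjusted p = 0.017) and its fall between the days was 1.18-fold (ratio 0.851, 95% interval 0.793 to 0.914, adjusted p = 0.00183). The day 1 call was lost on singly leaving out control replicate 2 or day 1 replicate 3 (0.0656 to 0.0675) and with quantile normalization (0.0578). Apex1 shares 61.7% of its exon bases with Pip4p1 on the other strand, whose mean went from 24.9 to 23.1 FPKM on day 1 (adjusted p = 0.206). Lig3, the ligase that seals the nick with Xrcc1, rose 1.097-fold (95% interval 1.02 to 1.18, adjusted p = 0.0279) on day 1 and fell 1.15-fold (ratio 0.8698, 95% interval 0.811 to 0.933, adjusted p = 0.00394) by day 3. Its day 1 call was lost on singly leaving out control replicate 1 or 3 or day 1 replicate 1 or 3 (0.0618 to 0.0978), with the FPKM as deposited (0.133) and without the 2 libraries richest in Rn45s (0.084). Rffl, which overlaps 25.1% of the Lig3 exon bases on the opposite strand, moved the other way on day 1 (1.202-fold lower, adjusted p = 0.00904).

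Xrcc1, the scaffold of single-strand break repair, measured 7.74, 8.002 and 7.93 FPKM in the control libraries, 6.83, 6.57 and 6.51 on day 1 and 6.85, 7.43 and 7.49 on day 3. The day 1 libraries were the lowest of the 9, and those of day 3 lay between them and the controls without overlap. It fell 1.15-fold (ratio 0.868, 95% interval 0.809 to 0.931, adjusted p = 0.00304) on day 1. Parp1, which senses strand breaks and marks them with poly(ADP-ribose), measured 23.9, 23.1 and 23.1 FPKM in the control libraries, 20.3, 20.1 and 20.8 on day 1 and 20.3, 20.7 and 20.9 on day 3. Both treated groups lay below every control library and overlapped each other. Parp1 fell 1.11-fold (ratio 0.9003, 95% interval 0.854 to 0.949, adjusted p = 0.00338) on day 1 and 1.12-fold (ratio 0.895, 95% interval 0.849 to 0.944, adjusted p = 0.0142) on day 3. It was the 1 member called lower than control on both days, though libraries of other members, such as Xrcc1 and Msh3, also lay below every control on both. The day 3 call of Parp1 was lost on singly leaving out control replicate 1 or day 3 replicate 1 (0.0523 to 0.0586) and without the 2 libraries richest in Rn45s (0.0602).

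Markers of other cell types moved in the same comparison as these genes. For the counts below, 29.6% of all tested genes were higher and 29% lower on day 1, and 25.6% were higher on day 3 than on day 1. The summed FPKM of 12 microglia markers ran from 272 to 296 in control, 109 to 119 on day 1 and 224 to 288 on day 3, with 10 of 12 lower on day 1 and 1, Tmem119, higher (means of 8.76 and 14.8 FPKM). That of 12 oligodendrocyte lineage markers ran from 654 to 684, 417 to 452 and 549 to 581, with all 11 tested ones lower on day 1, and Mog averaged under 0.3 FPKM. The 10 astrocyte markers summed to 3240 to 3334, 2366 to 2649 and 3030 to 3057, with 7 lower and 3 higher on day 1. The 7 mural cell markers summed to 472 to 502, 998 to 1052 and 385 to 446, with 4 of 5 tested ones higher on day 1, and Kcnj8 and Abcc9 averaged under 0.3 FPKM. The 6 ependymal markers summed to 118 to 129, 68.7 to 77.5 and 106 to 122, with all 4 tested ones lower on day 1 and higher again by day 3, and Tmem212 and Dnah11 averaged under 0.3 FPKM. Of the fibroblast markers 2 of 7 tested were higher and 4 lower on day 1, and of the endothelial markers 1 of 4 was higher and 2 lower. The part of these cell types in the falls and rises of repair genes on day 1 and in the return by day 3 was not tested.

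In mismatch repair, Msh6 rose and Msh3 fell on day 1. Msh6, which takes part in finding single mismatches, measured 10.2, 9.93 and 10.4 FPKM in the control libraries, 11.7, 11.5 and 11.00 on day 1 and 11.3, 10.4 and 11.4 on day 3. All day 1 libraries were above all controls, and day 3 reached down to the top of the control range. Msh6 rose 1.15-fold (95% interval 1.08 to 1.23, adjusted p = 0.00138) on day 1. Msh3, which takes part in finding larger loops, measured 3.66, 3.66 and 3.297 FPKM in the control libraries, 2.36, 2.86 and 2.67 on day 1 and 3.03, 2.800 and 2.92 on day 3. Both treated groups were below every control, and its fall on day 1 was 1.298-fold (ratio 0.7703, 95% interval 0.682 to 0.8702, adjusted p = 0.00214). On day 3 the ratio to control was 1.097 for Msh6 (adjusted p = 0.057) and 0.839 for Msh3 (adjusted p = 0.0651), neither of them called. Pms2, the nuclease subunit that acts downstream, was not called in any comparison.

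Of the nucleotide excision genes, Ercc1 and Ercc3 rose on day 1, Ercc2 fell and Xpa was not called. Ercc1, part of the nuclease that cuts on the 5′ side of a lesion, measured 12.02, 13.8 and 14.2 FPKM in the control libraries, 14.3, 14.5 and 15.7 on day 1 and 13.6, 12.9 and 14.1 on day 3. Its day 1 libraries were above the controls by a narrow margin, control replicate 1 standing lowest, and the rise was 1.15-fold (95% interval 1.05 to 1.26, adjusted p = 0.0161). The call was lost on singly leaving out control replicate 1 or day 1 replicate 3 (0.0563 to 0.0614), with the FPKM as deposited (0.0567) and without the 2 libraries richest in Rn45s (0.0609). Ercc3 and Ercc2 are the 2 helicases of the TFIIH complex, which opens DNA for repair and for transcription. Ercc3 rose 1.11-fold (95% interval 1.04 to 1.19, adjusted p = 0.0119) on day 1 and fell 1.11-fold (ratio 0.899, 95% interval 0.839 to 0.962, adjusted p = 0.014) by day 3. The day 1 call was lost without the 2 libraries richest in Rn45s (0.0574).

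Ercc2 measured 6.82, 6.39 and 7.12 FPKM in the control libraries, 5.35, 5.802 and 5.63 on day 1 and 6.88, 6.51 and 6.698 on day 3. Its day 1 libraries were the lowest of all, and day 3 overlapped control. The fall was 1.17-fold (ratio 0.853, 95% interval 0.788 to 0.922, adjusted p = 0.00295) and the rise by day 3 was 1.17-fold (95% interval 1.09 to 1.27, adjusted p = 0.00336). Klc3 overlaps 17.8% of the Ercc2 exon bases on the opposite strand and rose between the days as well (1.27-fold, adjusted p = 0.0259). The antisense gene Gm26852 overlaps 24.6% of them and has no value in the deposited FPKM. Xpa, which verifies the lesion, fell 1.11-fold (ratio 0.898, 95% interval 0.823 to 0.979, adjusted p = 0.0384) between the days with groups that overlapped. That call was lost on singly leaving out control replicate 1, day 1 replicate 2 or 3 or day 3 replicate 1 or 2 (0.0504 to 0.137), with no filter (0.0577), with the FPKM as deposited (0.077), by limma-voom on the recovered reads (0.0978), with the other group left out (0.0512) and without the 2 libraries richest in Rn45s (0.0982).

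Among the end joining genes, Xrcc5, Lig4 and Xrcc4 rose on day 1, and Xrcc6 and Prkdc were not called. Xrcc5 (chr1:72307421-72394952) encodes Ku80, the larger subunit of the ring that binds broken ends, and measured 11.6, 11.5 and 11.3 FPKM in the control libraries, 14.3, 14.3 and 14.2 on day 1 and 11.3, 11.1 and 11.4 on day 3. The 3 day 1 libraries were close to one another and above all of the rest, while control and day 3 overlapped. The rise was 1.28-fold (95% interval 1.22 to 1.34, adjusted p = 4.01e-06), the smallest adjusted p of any member, and the fall by day 3 was 1.28-fold (ratio 0.779, 95% interval 0.744 to 0.815, adjusted p = 5.4e-06). Xrcc6 encodes Ku70, the other subunit, and measured 10.6, 11.6 and 10.9 FPKM in the control libraries, 10.00, 10.8 and 10.7 on day 1 and 10.6, 10.2 and 9.77 on day 3. Its day 1 libraries overlapped control (ratio 0.984, 95% interval 0.916 to 1.06, adjusted p = 0.687). Desi1, at a control mean of 29.8 FPKM, overlaps 7.7% of the Xrcc6 exon bases on the opposite strand. It was not called on day 1 (adjusted p = 0.379), and the part of Desi1 in the Xrcc6 value was not tested. Whether the changes of the 2 subunits differed was not tested.

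Lig4, the ligase of this pathway, measured 3.28, 3.32 and 3.19 FPKM in the control libraries, 3.93, 4.05 and 4.31 on day 1 and 3.88, 3.48 and 3.43 on day 3. Day 1 and day 3 lay above every control, day 1 higher than day 3. The rise was 1.28-fold (95% interval 1.16 to 1.42, adjusted p = 0.000746), and the fall between the days was 1.15-fold (ratio 0.867, 95% interval 0.785 to 0.956, adjusted p = 0.0201). The fall lost its call on singly leaving out day 1 replicate 3 or day 3 replicate 2 or 3 (0.0597 to 0.0749) and without the 2 libraries richest in Rn45s (0.0782). Xrcc4, the partner that holds Lig4, rose 1.11-fold (95% interval 1.02 to 1.200, adjusted p = 0.0397) on day 1 with overlapping groups, and that call was lost on singly leaving out control replicate 1 or 3, day 1 replicate 2 or 3 or day 3 replicate 3 (0.0501 to 0.143), with no filter (0.0563), with the FPKM as deposited (0.146), with quantile normalization (0.0517), by limma-voom on the recovered reads (0.112), with the other group left out (0.0568) and without the 2 libraries richest in Rn45s (0.135). Prkdc, the kinase recruited by Ku, measured 1.99, 2.15 and 2.11 FPKM in the control libraries, 2.15, 1.83 and 1.997 on day 1 and 2.13, 2.06 and 2.12 on day 3. The 3 groups overlapped, with ratio 0.984, 95% interval 0.877 to 1.104, adjusted p = 0.807 on day 1.

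In the sensing and checkpoint group 5 of 8 genes rose on day 1 (Chek2, Atm, Atr, Rad50 and Trp53bp1), Mdc1 fell, and Nbn and Chek1 were not called, beside 29.6% of all tested genes higher and 29% lower. With the FPKM as deposited 2 of the 8 rose. Chek2 (chr5:110839979-110874145) encodes the kinase that Atm switches on after a double-strand break, and measured 3.42, 3.72 and 3.84 FPKM in the control libraries, 4.801, 4.82 and 4.72 on day 1 and 3.93, 3.92 and 3.89 on day 3. The day 1 libraries were above all of the others, and day 3 stayed just above the control range. Chek2 rose 1.34-fold (95% interval 1.24 to 1.44, adjusted p = 4.24e-05), the largest rise of any member on day 1, and fell 1.24-fold (ratio 0.8096, 95% interval 0.751 to 0.873, adjusted p = 0.000482) by day 3. Chek1, the matching kinase of the replication checkpoint downstream of Atr, measured 0.788, 1.23 and 0.944 FPKM in the control libraries, 0.859, 1.16 and 1.01 on day 1 and 0.781, 0.8598 and 0.865 on day 3. Its groups overlapped throughout (ratio 1.06, 95% interval 0.8297 to 1.35, adjusted p = 0.677 on day 1).

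Atm, the kinase at the head of the break response, measured 2.699, 2.62 and 2.67 FPKM in the control libraries, 3.01, 2.92 and 2.93 on day 1 and 2.74, 2.49 and 2.71 on day 3. The day 1 libraries were above all others, and day 3 overlapped control. Atm rose 1.14-fold (95% interval 1.04 to 1.24, adjusted p = 0.0173) on day 1 and fell 1.13-fold (ratio 0.884, 95% interval 0.809 to 0.966, adjusted p = 0.0244) by day 3. The day 1 call was lost on singly leaving out control replicate 2 or day 1 replicate 1 (0.0509 to 0.0554) and with the FPKM as deposited (0.06), and the fall on singly leaving out day 1 replicate 1 or 3 or day 3 replicate 2 (0.0554 to 0.0894), with the FPKM as deposited (0.053) and without the 2 libraries richest in Rn45s (0.109). Atr rose 1.12-fold (95% interval 1.02 to 1.24, adjusted p = 0.0407) on day 1, a call lost on singly leaving out control replicate 2 or 3, day 1 replicate 1, 2 or 3 or day 3 replicate 1, 2 or 3 (0.053 to 0.147), with no filter (0.0631), with the FPKM as deposited (0.11) and with the other group left out (0.0738).

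Rad50, a member of the complex that tethers broken ends, rose 1.13-fold (95% interval 1.07 to 1.199, adjusted p = 0.00229) on day 1 and fell 1.13-fold (ratio 0.888, 95% interval 0.837 to 0.941, adjusted p = 0.00332) by day 3, while its partner Nbn was at a ratio of 1.06 (adjusted p = 0.236). Trp53bp1, which shields broken ends from resection, rose 1.096-fold (95% interval 1.04 to 1.16, adjusted p = 0.00973) and fell 1.11-fold (ratio 0.905, 95% interval 0.855 to 0.957, adjusted p = 0.00704) by day 3. Tubgcp4 overlaps 15% of the Trp53bp1 exon bases on the opposite strand and was not called on day 1 (adjusted p = 0.917). The rise of Trp53bp1 was lost with the FPKM as deposited (0.071). Mdc1, the adaptor that binds marked chromatin next to a break, went the other way, at 6.98, 7.404 and 6.93 FPKM in the control libraries, 5.54, 6.19 and 5.85 on day 1 and 6.497, 6.91 and 6.49 on day 3. Its day 1 libraries were the lowest of the 9, and day 3 lay just below the control range. Mdc1 fell 1.17-fold (ratio 0.851, 95% interval 0.785 to 0.923, adjusted p = 0.00339) on day 1 and rose 1.11-fold (95% interval 1.03 to 1.21, adjusted p = 0.0314) by day 3. The later rise was lost on singly leaving out day 1 replicate 1 or 3 or day 3 replicate 2 (0.0561 to 0.12), with quantile normalization (0.0625) and without the 2 libraries richest in Rn45s (0.137).

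**Figure D3:**
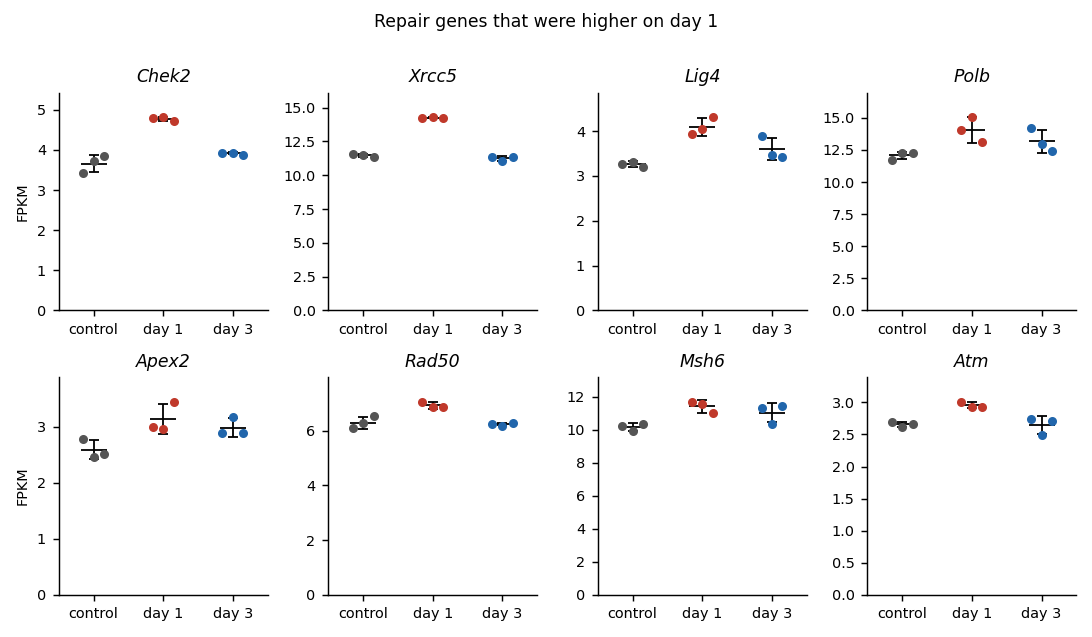
FPKM as deposited (vertical axis, from 0, with its own scale in each panel) of 8 repair genes that were higher on day 1, in control, day 1 and day 3 libraries; dots are single libraries, and the bars are the mean and SD of 3. In each of the 8 panels the day 1 libraries lie above all control libraries, and Chek2, Polb, Apex2 and Lig4 also have all day 3 libraries above control.

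Of the 7 recombination and Fanconi genes, 5 were lower on day 3 than on day 1, beside 26.8% of all tested genes. On day 1 none was called in either direction, beside 58.6% of all tested genes, with 0 at an unadjusted p under 0.05 in limma and 0 called by limma-voom. On day 3 against control Brca1 and Fancd2 fell, beside 5.85% of all tested genes lower. Against day 1 Brca1, Fancd2, Fanca, Fanci and Blm fell. Summed FPKM of the 7 ran from 6.69 to 7.65 in control, 6.65 to 7.57 on day 1 and 5.38 to 5.84 on day 3, so that the day 3 libraries lay below all of the others.

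Brca1, which directs broken ends into recombination, measured 1.34, 1.49 and 1.28 FPKM in the control libraries, 1.23, 1.16 and 1.29 on day 1 and 0.921, 1.03 and 0.9701 on day 3. The day 3 libraries were the lowest, and day 1 overlapped control by 1 library. Its fall on day 3 was 1.35-fold (ratio 0.741, 95% interval 0.635 to 0.865, adjusted p = 0.0205) against control and 1.25-fold (ratio 0.798, 95% interval 0.684 to 0.931, adjusted p = 0.0195) against day 1. The first call was lost on singly leaving out control replicate 1 or 2 or day 3 replicate 1 or 3 (0.0559 to 0.0776) and without the 2 libraries richest in Rn45s (0.0602), and the second on singly leaving out day 1 replicate 3 or day 3 replicate 1 or 3 (0.051 to 0.0666). Fancd2, the protein that the Fanconi core complex places on stalled forks, measured 0.779, 1.11 and 0.984 FPKM in the control libraries, 0.958, 1.11 and 1.12 on day 1 and 0.635, 0.624 and 0.553 on day 3. All day 3 libraries were below all of the others, and control overlapped day 1. It fell 1.47-fold (ratio 0.679, 95% interval 0.548 to 0.8404, adjusted p = 0.0266) against control and 1.68-fold (ratio 0.597, 95% interval 0.482 to 0.739, adjusted p = 0.00124) against day 1, the largest change of any member in any comparison. The call against control was lost on singly leaving out control replicate 2 or 3 or day 3 replicate 1 or 3 (0.0627 to 0.0946) and with the other group left out (0.0504).

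Fanca, a subunit of that core complex, measured 1.03, 1.23 and 1.24 FPKM in the control libraries, 1.25, 1.11 and 1.42 on day 1 and 0.836, 1.02 and 0.821 on day 3. Fanci, the partner of Fancd2, measured 0.822, 1.03 and 1.09 FPKM in the control libraries, 0.952, 1.06 and 1.01 on day 1 and 0.624, 0.756 and 0.807 on day 3. Blm, a helicase that undoes recombination intermediates, measured 1.18, 1.28 and 1.08 FPKM in the control libraries, 0.983, 1.198 and 1.29 on day 1 and 0.907, 0.955 and 0.875 on day 3. In all 3 the day 3 libraries were below every other library. On the opposite strand Polg overlaps 16% of the Fanci exon bases and Zfp276 10.5% of those of Fanca. Their control means were 8.49 and 4.88 FPKM. Between the days Zfp276 rose 1.17-fold (adjusted p = 0.00399) and Polg was not called (0.108). The part of these genes in the Fanci and Fanca values was not tested. Against day 1 Fanca fell 1.39-fold (ratio 0.718, 95% interval 0.587 to 0.879, adjusted p = 0.0111), Fanci 1.36-fold (ratio 0.735, 95% interval 0.597 to 0.904, adjusted p = 0.018) and Blm 1.25-fold (ratio 0.797, 95% interval 0.661 to 0.961, adjusted p = 0.0435). Against control the adjusted p values were 0.128, 0.113 and 0.122, and limma-voom on the recovered reads called all 3 (0.034, 0.0322 and 0.0278). The fall between the days was lost for Fanci on singly leaving out day 1 replicate 2 or day 3 replicate 1 (0.0543 to 0.0674) and for Blm on singly leaving out control replicate 1 or 2, day 1 replicate 2 or 3 or day 3 replicate 1, 2 or 3 (0.0532 to 0.145), with a filter of 1 FPKM (0.0538), with no filter (0.0695), with the FPKM as deposited (0.0544), with the other group left out (0.066) and without the 2 libraries richest in Rn45s (0.0779). Brca2, which loads the strand exchange filament, and Palb2, which links it to Brca1, were not called in any comparison, with day 3 ratios to control of 0.928 (95% interval 0.765 to 1.13) and 1.08 (0.866 to 1.36).

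A list of 29 genes of DNA replication and mitosis moved in the same comparison. Of these, 21 (72.4%) were lower on day 3 than in control and none higher (1 at an unadjusted p under 0.05, 0 by limma-voom). Over all tested genes 5.85% were lower and 6.55% higher. The summed FPKM of the 29 was 220 to 244 in control, 227 to 239 on day 1 and 183 to 185 on day 3. The part of the replicating cells in the fall of the recombination and Fanconi genes and of Neil3 was not tested.

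**Figure D4:**
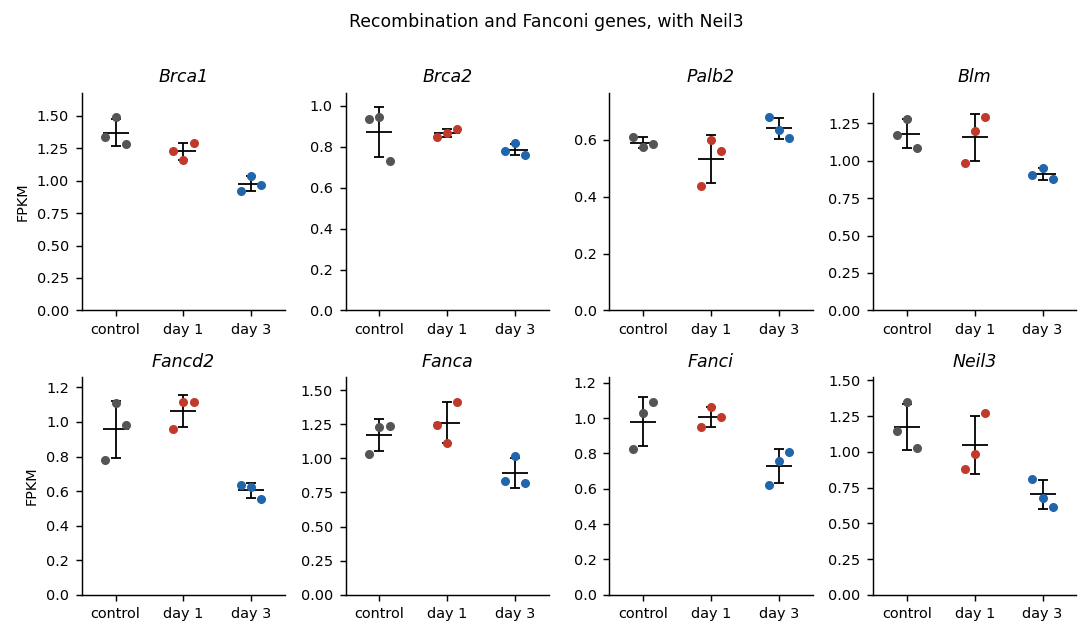
FPKM as deposited (vertical axis, from 0, with its own scale in each panel) of the 7 recombination and Fanconi genes and Neil3 in control, day 1 and day 3 libraries; dots are single libraries, and the bars are the mean and SD of 3. In Brca1, Blm, Fancd2, Fanca, Fanci and Neil3 all day 3 libraries lie below all control and day 1 libraries, while in Palb2 day 3 overlaps control.

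Promoter sequences were examined because replication-linked genes often carry binding words of E2F factors, which switch on genes for DNA synthesis. RefSeq promoters (250 bases before to 50 after the start, GRCm38.p6) were found for 38 of the 46 members and searched on both strands for TTTCCCGC, TTTCGCGC, TTTGCCGC and TTTGGCGC. Such a word was present in 7 of the 38 (18.4%), in 4.6% of the tested genes with a promoter entry, in 2.6% of all promoters of the table and in 8 of 25 (32%) of the replication and mitosis genes. The 7 were Chek2, Brca2, Msh3, Xrcc6, Nthl1, Mdc1 and Msh6. In Msh6 the word lies past the start and is not printed. A second word, TTTGAA, is the core of a sequence named CHR that is found in mitotic genes. It was in 0 of 38 members, 14% of tested genes, 20.2% of all promoters and 10 of 25 (40%) of the replication and mitosis genes. The stretches around 6 of the words are shown 5′ to 3′ on the gene's own strand, with the word in capitals (as its reverse complement in Chek2, Brca2 and Xrcc6, and as 2 overlapping words on opposite strands in Msh3), since they set genes that moved on day 1 beside genes that did not.
Chek2, chr5:110839809-110839860, plus strand, rose on day 1: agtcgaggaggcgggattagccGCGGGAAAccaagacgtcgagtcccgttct
Nthl1, chr17:24632528-24632579, plus strand, fell on day 1: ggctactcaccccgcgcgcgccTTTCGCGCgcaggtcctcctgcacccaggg
Mdc1, chr17:35841460-35841497, plus strand, fell on day 1: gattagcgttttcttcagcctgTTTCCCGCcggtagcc
Msh3, chr13:92355172-92355227, minus strand, fell on day 1: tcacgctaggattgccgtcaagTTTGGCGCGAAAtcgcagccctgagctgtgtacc
Xrcc6, chr15:82016301-82016352, plus strand, not called in any comparison: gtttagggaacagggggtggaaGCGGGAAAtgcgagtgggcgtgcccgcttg
Brca2, chr5:150522431-150522482, plus strand, not called in any comparison: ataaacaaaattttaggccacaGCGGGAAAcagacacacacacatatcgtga
These matches describe the letters of the windows and are not measured binding. Of the 5 recombination and Fanconi genes that fell between the days, the 4 with a promoter entry held no such word, and Fancd2 has no entry. The genes with a word include risers, fallers and genes that were not called.

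A further 105 repair genes outside the 46 were listed by pathway, and 102 of them were tested. On day 1, 27 were higher and 19 lower (45.1%, beside 58.6% of all tested genes), on day 3 against control 6 were higher and 3 lower (8.82%, beside 12.4%), and between the days 12 rose and 34 fell (45.1%, beside 52.4%). The largest rise was in Mgmt, the enzyme that takes the methyl group off O6-methylguanine by direct reversal, which measured 8.43, 8.49 and 9.03 FPKM in the control libraries, 14.4, 15.9 and 14.3 on day 1 and 12.4, 13.9 and 13.4 on day 3. Its 3 groups did not overlap, with day 1 highest and control lowest. Mgmt rose 1.76-fold (95% interval 1.62 to 1.91, adjusted p = 7.55e-07) on day 1 and stood 1.54-fold (95% interval 1.42 to 1.67, adjusted p = 0.000127) higher on day 3.

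Polk and Ercc5 kept a rise to day 3 as well. Polk, a polymerase that copies past damaged bases, measured 5.42, 5.74 and 5.73 FPKM in the control libraries, 8.15, 8.51 and 8.44 on day 1 and 7.53, 6.26 and 7.18 on day 3. Ercc5, the nuclease that cuts on the 3′ side of a lesion, measured 8.21, 8.38 and 7.96 FPKM in the control libraries, 10.2, 10.8 and 10.6 on day 1 and 9.69, 9.48 and 9.51 on day 3. In both genes day 1 was highest, day 3 intermediate and control lowest, with no overlap. On day 3 Polk was 1.25-fold (95% interval 1.14 to 1.37, adjusted p = 0.00572) and Ercc5 1.18-fold (95% interval 1.12 to 1.25, adjusted p = 0.00274) above control. The single-strand break factor Aplf was 1.22-fold (95% interval 1.09 to 1.37, adjusted p = 0.0284) above control on day 3, a call lost on singly leaving out control replicate 1, 2 or 3 or day 3 replicate 2 or 3 (0.0606 to 0.0827), with no filter (0.0513), with the other group left out (0.0678) and without the 2 libraries richest in Rn45s (0.126).

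Some other genes of these lists fell between the days. Rbbp8, which starts the resection of broken ends, measured 3.47, 3.48 and 3.92 FPKM in the control libraries, 5.74, 4.95 and 5.53 on day 1 and 3.72, 3.07 and 3.75 on day 3, and its rise on day 1 was 1.52-fold (95% interval 1.33 to 1.74, adjusted p = 0.000169). Primpol, which restarts stalled forks, rose 1.497-fold (95% interval 1.31 to 1.71, adjusted p = 0.000198) on day 1. Both fell between the days, by 1.55-fold (adjusted p = 0.000161) and 1.36-fold (adjusted p = 0.00152). Dut, which keeps uracil nucleotides out of the pool, rose on day 1 from a control mean of 5.07 FPKM to 6.998 (adjusted p = 1.99e-05). Between the days Dut fell 1.53-fold (ratio 0.653, 95% interval 0.602 to 0.708, adjusted p = 7.09e-06), and on day 3 it was not called against control (adjusted p = 0.192). The Fanconi ubiquitin-conjugating enzyme Ube2t fell 1.49-fold (ratio 0.669, 95% interval 0.536 to 0.835, adjusted p = 0.00662) between the days.

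On the falling side H2ax, the histone variant whose phosphorylation marks breaks, measured 35.2, 36.7 and 36.8 FPKM in the control libraries, 30.01, 26.3 and 27.3 on day 1 and 24.9, 25.2 and 27.3 on day 3. Both treated groups lay below every control, with a fall of 1.26-fold (ratio 0.792, 95% interval 0.733 to 0.855, adjusted p = 0.000227) on day 1 and 1.39-fold (ratio 0.721, 95% interval 0.668 to 0.779, adjusted p = 0.000397) on day 3. Lig1, the replication ligase that also seals long repair patches, fell 1.302-fold (ratio 0.768, 95% interval 0.693 to 0.852, adjusted p = 0.0053) on day 3. Paxx, an accessory factor of end joining, fell 1.26-fold (ratio 0.793, 95% interval 0.731 to 0.8596, adjusted p = 0.00032) on day 1, as did Samhd1, which limits the nucleotide pool, by 1.26-fold (ratio 0.796, 95% interval 0.741 to 0.854, adjusted p = 0.000139). Both rose between the days, Paxx 1.21-fold (95% interval 1.12 to 1.32, adjusted p = 0.00129) and Samhd1 1.21-fold (95% interval 1.13 to 1.299, adjusted p = 0.000587). So did Adprhl2, which removes ADP-ribose from proteins, by 1.13-fold (95% interval 1.05 to 1.22, adjusted p = 0.00893), and Cdk7, the kinase of TFIIH, by 1.14-fold (95% interval 1.06 to 1.22, adjusted p = 0.00708). Adprhl2 and Cdk7 had also been lower than control on day 1 (adjusted p = 0.000654 and 0.0169). Neither was called against control on day 3 (0.255 and 0.713). The day 1 call of Cdk7 was lost on singly leaving out control replicate 1 or 2 or day 1 replicate 3 (0.0502 to 0.0598). Mbd4, a glycosylase for thymine and uracil at CpG sites, fell 1.24-fold (ratio 0.804, 95% interval 0.692 to 0.935, adjusted p = 0.0179) on day 1, a call lost on singly leaving out control replicate 2 or day 1 replicate 1 or 3 (0.0558 to 0.0684) and with quantile normalization (0.0604).

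**Figure D5:**
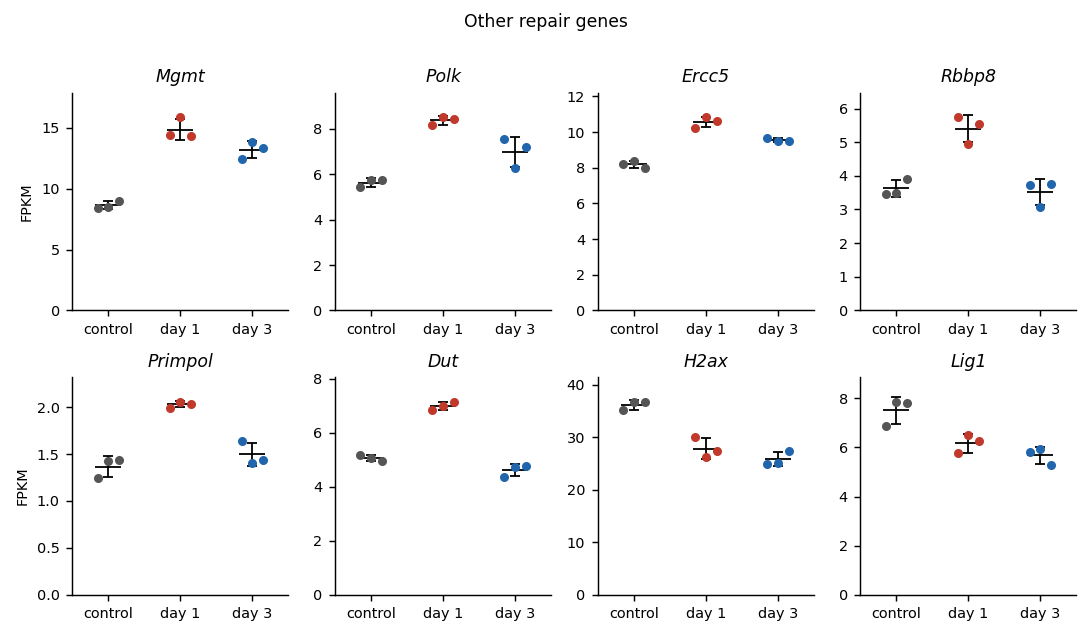
FPKM as deposited (vertical axis, from 0, with its own scale in each panel) of 8 repair genes outside the 46, in control, day 1 and day 3 libraries; dots are single libraries, and the bars are the mean and SD of 3. In Mgmt, Polk and Ercc5 all day 3 libraries lie between control and day 1, in Rbbp8 and Primpol they overlap control, and in Dut, H2ax and Lig1 they lie below it. In Dut all day 1 libraries lie above control.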

How the data were processed

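Polyadenylated RNA was sequenced in 9 libraries of cultured mouse astrocytes, 3 per group. The authors deposited FPKM per gene and library. The submitters' processing notes name STAR 2.7.3a, cutadapt 2.6, DESeq2 and FastQC 0.12.1, and as builds mm10 and GRCm38. The sources used here do not give the counting program, annotation, strand handling or filters. All 20350 genes above 0 in the deposited FPKM table resolved into whole reads (tolerance 0.01 read), which sum to 99.913% to 99.938% of the library totals of 23032594 to 38414668.

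Libraries were rescaled by median-of-ratios factors (0.973 to 1.02), and the 14489 genes averaging 0.3 FPKM or more were kept, since many repair genes are long and low. With limma 3.58.1 (R 4.3.3), log2(FPKM + 0.1) was fitted on group alone over all 9 libraries, with a trended variance prior. Two-sided p-values were adjusted by Benjamini-Hochberg over all tested genes, and those under 0.05 were called. The fit was tested on simulated data with little spread beyond sampling noise (dispersion 0.00043). It recovered 23 of 50 genes raised by 0.25 on the log2 scale, 37 of 50 raised by 0.5 and 48 of 50 raised by 1. Of 14289 unchanged genes it called 6. Changes as small as those of many members can therefore go uncalled. Replicates differed by more than sampling noise (chi-square per degree of freedom 1.75 to 4.76).

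The 46 members, the further lists and the tests were chosen with earlier results of these data known. Values in every library are given for the 6 largest called rises and falls per comparison with groups that do not overlap and a higher mean of at least 1 FPKM, and for 14 members whatever their values. For the other repair genes up to 4 rises and 4 falls per comparison are named, and for the replication and mitosis genes up to 3. The alternatives were pseudocounts of 1 and 0.01, a filter of 1 FPKM and none, no rescaling, quantile normalization, the 6 libraries compared, a replicate block, an adjusted p under 0.01, limma-voom on the recovered reads, and each library left out. Leaving out the 2 libraries richest in Rn45s was added after seeing the data. One gene that the naming rule selects on day 3 is not reported here. Gene positions and exon overlaps come from GENCODE M21 (GRCm38), copies from blastn 2.17.0, promoters from RefSeq (GRCm38.p6) and figures from matplotlib 3.10.9.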

Additional observations from a re-analysis of the deposited data

How the results depend on the processing

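Over the 19 alternatives at an adjusted p under 0.05, no listed gene reversed a called direction. On day 1 all 10 falls kept their call in every one, as did 7 of the 16 rises (Apex2, Chek2, Lig4, Msh6, Polb, Rad50 and Xrcc5). Between the days 4 of 7 rises (Ogg1, Nthl1, Neil1 and Ercc2) and 9 of 16 falls did. Among these falls Fancd2 was not tested with a filter of 1 FPKM, so its call held over 18 alternatives. None of the 4 falls on day 3 against control kept its call throughout.

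On day 1 the 16 higher genes became 10 with the FPKM as deposited, and 10 to 16 with 1 library left out. The 10 lower genes stayed 10 in each case. On day 3 against control the 4 lower genes became 2 with a filter of 1 FPKM, where Neil3 and Fancd2 are not tested, 9 by limma-voom, 2 without the 2 libraries richest in Rn45s, and 1 to 5 with 1 library left out. The 0 higher genes became 1 by limma-voom (Msh6), 1 without the 2 libraries richest in Rn45s, and 0 to 1 with 1 library left out. Between the days the 7 higher genes became 4 without the 2 libraries richest in Rn45s and 4 to 7 with 1 library left out, and the 16 lower genes ran from 11 to 18. At an adjusted p under 0.01 the counts were 7 higher on day 1, 0 lower on day 3 against control, and 4 higher and 7 lower between the days. Beyond the changes in the number of genes or libraries tested, the cause was not tested.

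With the replicate number as a block, 1 listed gene (Msh6, adjusted p = 0.0487) was higher on day 3 against control in place of 0. Neil3 (0.0503) lost that comparison's call, Ung (0.0281) gained it, and the number lower stayed 4. The block also took the call from Xrcc4 on day 1 (0.054) and from Blm (0.0557) and H2ax (0.0546) between the days. The labels do not say whether libraries with the same number belong together. Their deviations from the group means correlated at -0.05 to 0.04. With 3 libraries per group and sampling noise in each, these correlations cannot decide whether such libraries shared a culture or batch.

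Depth limits the low genes most, with 41 to 92 reads in a library for Palb2 and 3238 at most for Parp1. Intervals and tests cover the spread between these libraries.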

Other observations

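The replication and mitosis list, 29 genes that were not among the repair genes, was divided on day 1. On day 3 against control 21 were lower, 0 higher and 8 not called, beside 5.85% of all tested genes lower and 6.55% higher. On day 1, 11 were higher and 9 lower than in control (37.9% and 31%), beside 29.6% and 29% of all tested genes. The nucleotide synthesis genes Tyms and Rrm1 rose 1.42-fold (adjusted p = 0.000487) and 1.37-fold (1.27e-05), and the G1 cyclin Ccne1 1.41-fold (0.00157). The replication licensing genes Cdt1 and Mcm3 fell 1.54-fold (0.000638) and 1.35-fold (3.65e-05). On day 3 the mitotic genes Cenpf, Aurkb and Top2a were 1.63-fold (0.000953), 1.48-fold (7e-04) and 1.48-fold (0.000175) lower than control. Between the days 20 of the 29 fell and 1 rose, beside 26.8% and 25.6% of all tested genes. Cenpf, Ccnb1 and Ccnb2 were 1.95-fold, 1.93-fold and 1.89-fold lower (adjusted p values of 1.15e-05, 3.94e-06 and 1.84e-05).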
